A study of Mus musculus with 12 samples.

Results

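Prox1 (ENSMUSG00000010175) was followed across 12 RNA libraries of mouse rod photoreceptors, as 1 gene of the 52962 in the gene table and with the 3 of 141196 annotated transcripts that belong to it. The gene was selected on values measured in these libraries, because its level differed between the Csnk2a1 vector group and its control, so levels that involve those libraries are given as a description without a test. It was 1 of 20267 genes with enough counts to enter the model. The series asked what protein kinase CK2 does to the rod genes controlled by NRL, a transcription factor that sets rod identity. Csnk2a1 encodes the alpha catalytic subunit of CK2, a serine/threonine kinase found in all cells.

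The cells came from mouse retinas that had been electroporated with plasmids and were dissociated at postnatal day 8. Cells positive for green fluorescent protein were picked by hand as rods, at 50 to 100 cells per library, and total RNA was amplified with a stranded low-input kit. Strain, sex and genotype of the mice are not given in the labels, and neither is the promoter that drove the fluorescent protein. The 4 groups of 3 libraries received a short hairpin RNA control (shRNA Control), a hairpin against mouse Csnk2a1 (shRNA mCsnk2a1), the expression vector pcDNA4c (pcDNA4c Control) or pcDNA4c with mouse Csnk2a1 (pcDNA4c mCsnk2a1). Below, knockdown and overexpression stand for the intended effect of the hairpin and of the vector, each against its own control. The labels call the 3 RNA samples of a treatment independent and do not say whether they came from separate animals, so the spread behind each p-value is that among these samples and may in part be technical.

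PROX1 is a homeodomain transcription factor, the vertebrate counterpart of Drosophila Prospero. In the developing retina it promotes exit of progenitors from the cell cycle and the formation of horizontal cells, and in the mature mouse retina it marks horizontal cells, AII amacrine cells and bipolar cells. Outside the retina it is known as the master regulator of lymphatic endothelial identity and for roles in lens fibre cells and in liver. Mature rods are not a cell type for which PROX1 is known as a marker.

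Prox1 lies on the minus strand of chromosome 1, from 190118035 to 190170714 (GRCm38). Its 3 transcripts in GENCODE M21 have 5 exons each and the same coding sequence of 2211 nucleotides or 737 codons, without the stop codon. Prox1-202 is the longest at 7913 nucleotides, with a 3′ untranslated region of 5185 nucleotides, where Prox1-201 (3285 nucleotides) has 767 and Prox1-203 (3144 nucleotides) has 210. The first exons differ as well. Those of Prox1-202 (190170268 to 190170714) and Prox1-203 (190170028 to 190170680) lie upstream of that of Prox1-201 (190169163 to 190169399). RefSeq has starts near both places, 190170827 and 190169515, which are 1312 bases apart.

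The windows of 250 bases before each RefSeq start are shown because the 3 transcripts begin just downstream of 1 or the other of them. They are read 5′ to 3′ on the minus strand from RefSeq (GRCm38.p6). The first spans chr1:190170828-190171077 and lies upstream of every Prox1 transcript, within the intron of the antisense gene Prox1os on the other strand. The second spans chr1:190169516-190169765 and is intronic in Prox1-202 and Prox1-203. Capitals mark the match to TATAAA on the opposite strand.
Prox1 upstream start: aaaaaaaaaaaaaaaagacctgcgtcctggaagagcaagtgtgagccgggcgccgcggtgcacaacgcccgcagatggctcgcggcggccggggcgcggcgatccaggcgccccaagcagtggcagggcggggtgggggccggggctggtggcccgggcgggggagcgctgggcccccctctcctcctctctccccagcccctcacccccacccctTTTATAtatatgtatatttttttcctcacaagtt
Prox1 downstream start: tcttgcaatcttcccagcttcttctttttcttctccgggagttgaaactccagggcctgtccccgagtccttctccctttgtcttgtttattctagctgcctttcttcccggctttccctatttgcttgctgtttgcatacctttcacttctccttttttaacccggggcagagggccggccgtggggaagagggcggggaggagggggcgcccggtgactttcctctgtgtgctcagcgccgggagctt

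The upstream window was rich in G and C, at 64.8%, above 82.3% of 32851 RefSeq windows of the same length, whose median was 52.4%. The downstream window held 56.0%, above 61.3% of them. Both strands were searched for TATAAA (the TATA box), TAATCC (the core bound by CRX), TAATTA (a paired-type homeodomain core) and TGCTGA (a half-site bound by MAF proteins such as NRL). In the upstream window 1 match was found, to TATAAA at bases -34 to -29 from the start. The downstream window held 0 matches. The 4 motifs occurred in 12.4%, 6.25%, 4.84% and 16.1% of all windows in the order given. A match is a description of letters and not of binding.

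Estimated counts summed to between 1608926 and 2017623 in the control libraries and between 2296056 and 3567121 in those of both Csnk2a1 groups, and 16164 to 25326 genes had a count. Levels are given as counts-per-million values (CPM), with libraries scaled by TMM, the trimmed mean of M-values. The targeted gene Csnk2a1 stood at 12.0, 22.2 and 36.0 CPM in shRNA mCsnk2a1, 66.9, 57.2 and 8.51 in shRNA Control, 86.6, 25.0 and 28.3 in pcDNA4c Control, and 49.9, 145 and 122 in pcDNA4c mCsnk2a1. Each Csnk2a1 group overlapped its control, and neither difference passed (edgeR adjusted p = 0.905 and 0.801). Over all 12 libraries the log2 level of Csnk2a1 had a Pearson r of 0.12 with that of Prox1, which places it at rank 3902 of 15616 genes by likeness. As a check of the picked cells, the rod list of 9 genes summed to between 3506 and 8794 CPM in every library. The macrophage and microglia genes Spp1, Lyz2 and Mpeg1 were high in all 3 pcDNA4c Control libraries (1705 to 2172, 295 to 390 and 149 to 194 CPM) and at or under 11.9 CPM in the other 9. That control group therefore stands apart from the rest, and the overexpression comparison rests on it.

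Prox1 was low in 1 group of the 4. The pcDNA4c Control libraries stood at 14.3, 23.5 and 18.8 CPM. The pcDNA4c mCsnk2a1 libraries stood at 307, 146 and 420 CPM, the shRNA mCsnk2a1 libraries at 170, 399 and 305, and the shRNA Control libraries at 102, 221 and 70.3. All 3 pcDNA4c Control libraries lay below every one of the other 9, while the other 3 groups overlapped one another in each pair. In estimated counts the reads behind these levels were 28.7, 47.4 and 34.0 in pcDNA4c Control, 702, 465 and 1252 in pcDNA4c mCsnk2a1, 453, 1297 and 855 in shRNA mCsnk2a1, and 196, 371 and 124 in shRNA Control.

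**Figure D1:**
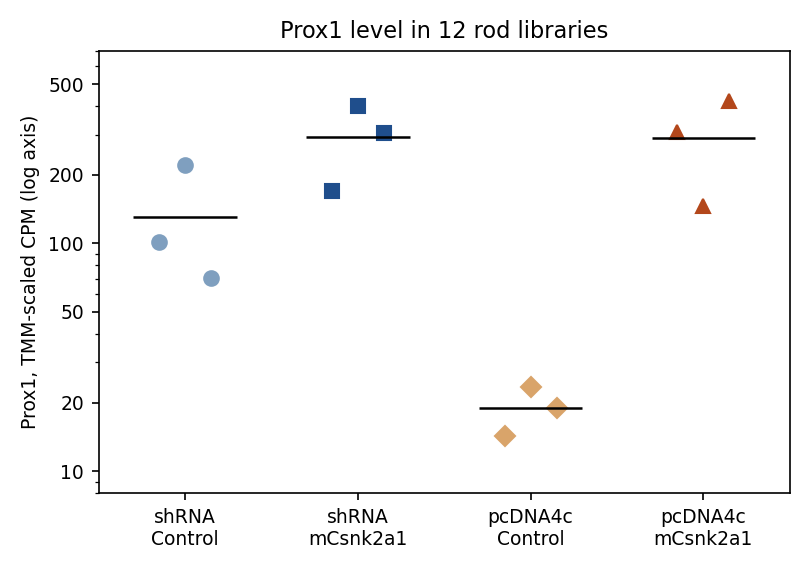
Prox1 level in CPM on a log axis, 1 symbol per library, with a black line at the mean of each group of 3. The pcDNA4c Control libraries, at 14.3 to 23.5 CPM, lie below all others, and the remaining 3 groups overlap between 70.3 and 420 CPM.

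Ordered by mean, the groups ran from pcDNA4c Control at 18.9 ± 4.62 CPM over shRNA Control at 131 ± 79.5 to pcDNA4c mCsnk2a1 at 291 ± 138 and shRNA mCsnk2a1 at 291 ± 115 (SD, n = 3 each). The step from pcDNA4c Control to shRNA Control was beyond their spread in the sense that no libraries overlapped. The step from shRNA Control to either Csnk2a1 group was not, and the Csnk2a1 groups had a ratio of means of 0.999. Relative to the spread among libraries, Prox1 was steadiest in pcDNA4c Control, where the highest library was under 2 times the lowest, and ranged widest in shRNA Control.

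Per unit of transcript length the order of the pcDNA4c Control group was the same. Summed over its transcripts Prox1 stood at 0.918, 1.54 and 1.31 TPM (transcripts-per-million) in pcDNA4c Control, and at 26.9, 12.2 and 35.4 in pcDNA4c mCsnk2a1. In shRNA mCsnk2a1 it stood at 12.4, 31.6 and 23.4 TPM and in shRNA Control at 10.3, 22.7 and 6.81. Read as a position within each library, Prox1 lay above 25.3% to 36.3% of detected genes in pcDNA4c Control, 60.5% to 82.9% in shRNA Control, 78.5% to 89.1% in shRNA mCsnk2a1 and 70.0% to 89.2% in pcDNA4c mCsnk2a1. In the control hairpin group the gene thus ranked above the middle of detected genes in every library. On the same TPM scale the rod homeobox gene Crx stood at 136 ± 24.3 in shRNA Control and 118 ± 3.06 in pcDNA4c Control (SD, n = 3).

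In the overexpression comparison the ratio of mean CPM was 15.4, and the ratio of mean TPM 19.8. The modelled log2 difference in level was 3.94 (SE 0.62) and its size was larger than that of 88.3% of genes tested. Groups that did not overlap, with the vector group higher, were found for 755 of 20267 genes (3.73%), Prox1 among them. At an edgeR adjusted p under 0.05, 20 genes or 0.0987% passed in either direction and 13 or 0.0641% higher. Because the gene was selected on this comparison, nothing is read from its place among them. Against shRNA Control, the vector group's mean was 2.22 times as high and the libraries overlapped.

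The knockdown comparison shares no library with the one on which Prox1 was selected and was tested. The hairpin group's mean was 2.22 times that of its control, a log2 difference of 1.15 (SE 0.56), which did not pass (edgeR adjusted p = 0.600, and p = 0.2 in an exact two-sided permutation test of 3 against 3 libraries, where 0.1 is the smallest possible). The groups overlapped through shRNA Control 2, at 221 CPM, which lay above shRNA mCsnk2a1 1, at 170. Without shRNA Control 2 the log2 difference was 1.74, and the gene still did not pass. With knockdown 0 genes (0%) passed in edgeR, 1688 had an unadjusted p under 0.05, DESeq2 called 183 and limma voom 2. The size of the Prox1 difference was larger than that of 55.5% of genes tested.

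The controls themselves differed in Prox1. The log2 level of Prox1 was 2.79 (SE 0.59) higher in shRNA Control than in pcDNA4c Control, a size above that of 89.4% of genes. The overexpression difference minus the knockdown difference was also 2.79 (SE 0.80). That contrast holds the same control libraries. In the same pcDNA4c Control libraries the microglia list summed to 2551 to 3010 CPM, against 58.9 to 69.0 in shRNA Control, 1.78 to 37.9 in shRNA mCsnk2a1 and 35.9 to 74.9 in pcDNA4c mCsnk2a1. Its part in the Prox1 difference was not tested.

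The longest transcript was the 1 found in every library. Prox1-202 stood at 6.16, 6.47 and 4.94 TPM in shRNA Control and at 3.70, 18.3 and 7.74 in shRNA mCsnk2a1. It stood at 0.302, 1.54 and 0.407 in pcDNA4c Control and at 6.30, 12.2 and 20.3 in pcDNA4c mCsnk2a1. As for the gene, the pcDNA4c Control libraries lay below all others and the remaining groups overlapped.

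Prox1-203, which shares the upstream first exon region, stood at 4.13, 7.64 and 1.86 TPM in shRNA Control and at 1.16, 13.3 and 0 in shRNA mCsnk2a1. It stood at 0.616, 0 and 0.902 in pcDNA4c Control and at 11.1, 0 and 11.1 in pcDNA4c mCsnk2a1. A value of 0 occurred in each group but shRNA Control, so its groups were not separated.

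Prox1-201, which begins at the downstream start, was listed at 0 in all 3 pcDNA4c Control libraries. It was at 0, 8.64 and 0 TPM in shRNA Control, at 7.54, 2.30e-06 and 15.7 in shRNA mCsnk2a1, and at 9.55, 0 and 4.00 in pcDNA4c mCsnk2a1. Leaving aside the trace in shRNA mCsnk2a1 2, it appeared in 1 or 2 libraries of each of the other groups and in all libraries of none.

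**Figure D2:**
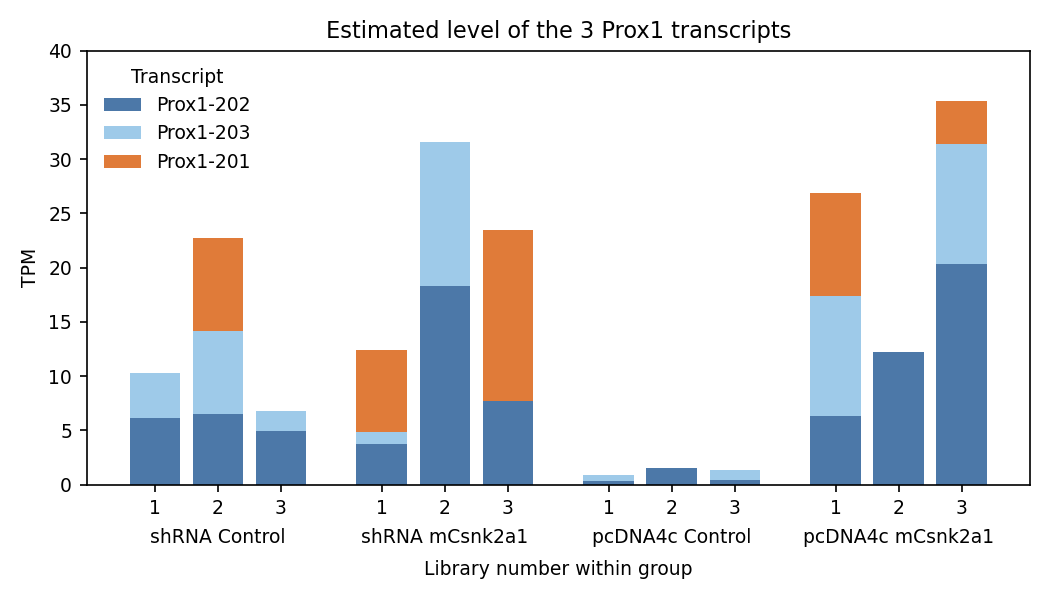
Stacked bars of the TPM of Prox1-202, Prox1-203 and Prox1-201 in each of the 12 libraries, by group. Prox1-202 is present in every bar, Prox1-201 is missing in pcDNA4c Control, and pcDNA4c Control 2 and pcDNA4c mCsnk2a1 2 hold Prox1-202 alone.

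As a share of the gene's TPM, Prox1-202 made up 23.4% to 100% by library. The division varied as much within groups as between them: it was 28.4% to 72.6% in shRNA Control, 29.8% to 57.9% in shRNA mCsnk2a1, 31.1% to 100% in pcDNA4c Control and 23.4% to 100% in pcDNA4c mCsnk2a1. The transcripts differ only in their ends, so reads from the shared coding exons were divided among them by estimation, and with 28.7 to 47.4 counts for the whole gene in pcDNA4c Control a value of 0 for 1 transcript there says little. The first exon of the antisense gene Prox1os overlaps the first exons of Prox1-202 and Prox1-203 by 133 bases. No source used here gives the strand setting of the quantification, so reads from that stretch could not be assigned to a strand.

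Relatives and neighbours of Prox1 were low or overlapped between groups. Prox2, the other vertebrate prospero gene, was at 3.44, 8.00 and 12.7 CPM in pcDNA4c Control and at 10.1, 0 and 1.34 in pcDNA4c mCsnk2a1. In shRNA Control it was at 13.5, 5.95 and 0.567 CPM, and in shRNA mCsnk2a1 at 28.9, 0 and 0. The groups of Prox2 overlapped, with a log2 difference of 0.53 (SE 2.32) with knockdown and -1.08 (SE 2.34) with overexpression. Prox1os was counted in a single library, pcDNA4c Control 3, at 6.09 CPM from 11.1 estimated counts. It was too low to be tested.

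Of the other genes listed for the locus, Smyd2 encodes a lysine methyltransferase, Rps6kc1 a ribosomal S6 kinase family protein and Ptpn14 a tyrosine phosphatase. Their log2 differences with overexpression were -2.02 (SE 2.40), 0.13 (SE 0.98) and -1.29 (SE 1.43). None of the 4 modelled genes of this list passed in either comparison, beside 0% of all genes with knockdown and 0.0987% with overexpression. Their Pearson r with Prox1 over 12 libraries lay between -0.34 and 0.24.

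Likeness to Prox1 was measured by the Pearson r of log2 CPM over the 12 libraries, for 15616 genes with unnamed and pseudogene symbols left out. For comparison, 5% of genes lay below -0.59 and 5% above 0.44. The 12 points share the group structure and the low-input libraries, so r is a description. Of the 10 genes with the highest r, 8 are described here.

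The genes most like Prox1 were of several kinds. Isl1, a LIM homeobox gene of bipolar and other inner retinal neurons, had an r of 0.85 (Spearman rho 0.70). It stood at 14.8, 18.5 and 20.5 CPM in pcDNA4c Control and at 173, 87.4 and 75.2 in pcDNA4c mCsnk2a1. With the hairpins Isl1 stood at 98.8, 287 and 70.6 CPM in shRNA mCsnk2a1 and at 41.5, 51.2 and 87.9 in shRNA Control. As for Prox1, the pcDNA4c Control libraries lay below all others and the other groups overlapped. Since Isl1 was picked here by its r with Prox1, that pattern was favoured by the selection. The Isl1 differences, 2.64 (SE 0.72) with overexpression and 1.34 (SE 0.68) with knockdown, did not pass (edgeR adjusted p = 0.378 and 0.607). The ribosomal protein genes Rpl41 and Rpl26 had an r of 0.86 and 0.84. Rn7s1 and Rn7s2, copies of the signal recognition particle RNA with identical values that the counting could not separate, had an r of 0.87. The remaining genes were Ptov1 (0.88), Fam171b (0.85) and Mif (0.85), the last encoding macrophage migration inhibitory factor.

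The likeness of most of these rested on the group means. With group means removed r was 0.49 for Ptov1, 0.35 for Rpl41 and 0.12 for Isl1, and it was below 0 for Rn7s1, Fam171b, Mif and Rpl26. The genes most opposite to Prox1 were Ctss, the lysosomal protease cathepsin S of macrophages (r -0.93), Fkbp10 (-0.93) and Cfb, a complement factor (-0.92). Ctss was at 213, 222 and 128 CPM in pcDNA4c Control, at 17.6 in shRNA Control 3 and at 0 in the other 8 libraries, so its opposition follows the same group.

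The bipolar list of 8 genes summed to 82.5 to 223 CPM in pcDNA4c Control, 302 to 466 in shRNA Control, 520 to 1530 in shRNA mCsnk2a1 and 322 to 694 in pcDNA4c mCsnk2a1. As for Prox1, the pcDNA4c Control libraries lay below all others. Log2 differences with overexpression were above 0 for 8 of 8 members, with a median of 1.89 where the median over all genes tested was -0.16, and 0 of 8 passed in edgeR, beside 0.0641% of all genes higher. With knockdown 0 of 8 passed, beside 0% of all genes, 6 were above 0 and the median was 1.17 against -0.03 over all genes. The defining genes Prkca, the rod bipolar kinase, and Trpm1, the cation channel of ON bipolar cells, differed by 1.33 (SE 0.88) and 1.44 (SE 0.93) with overexpression, and by 1.97 (SE 0.89) and 2.81 (SE 0.98) with knockdown. Prkca and Trpm1 were counted in all 12 libraries. Gng13 was at 0 in all 3 pcDNA4c Control libraries. The members Isl1 and Pcp2, the latter named after its values were seen, had no overlap between the vector group and its control, with the vector group higher, which is 2 of 8 members beside 3.73% of all genes.

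The summed bipolar level had a Pearson r of 0.80 and a Spearman rho of 0.70 with Prox1 over 12 libraries, with r 0.45 without pcDNA4c Control and 0.10 with group means removed. Prox1 amounted to 9.73%, 28.5% and 8.44% of the summed bipolar level in pcDNA4c Control and to 62.4%, 21.0% and 131% in pcDNA4c mCsnk2a1. It amounted to 32.7%, 26.1% and 33.6% in shRNA mCsnk2a1 and to 22.1%, 47.4% and 23.3% in shRNA Control. This ratio compares libraries and not genes, whose lengths differ. By this measure pcDNA4c Control overlapped the other 3 groups through its second library, although the gene's own level did not overlap. In pooled cells a smaller number of bipolar cells and less RNA per cell cannot be told apart, and the part of bipolar RNA in the Prox1 level was not tested.

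**Figure D3:**
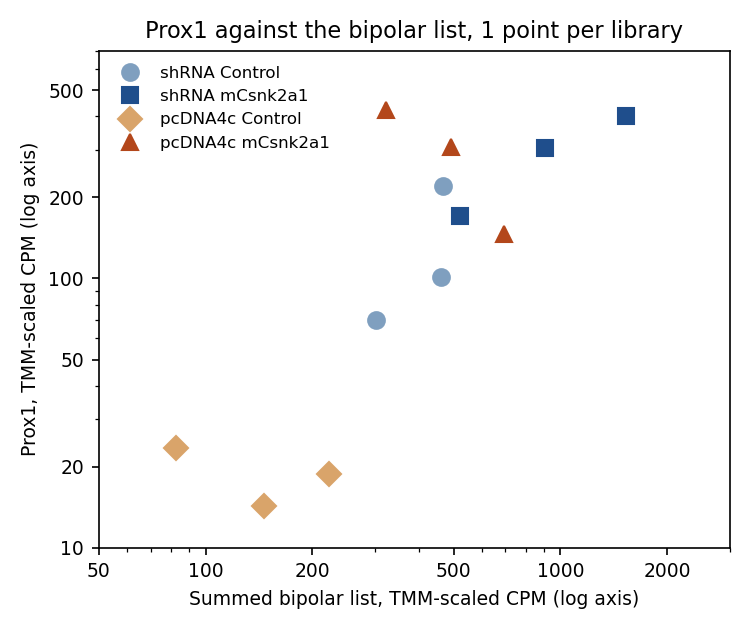
Prox1 against the summed bipolar list of 8 genes, both in CPM on log axes, 1 point per library. The pcDNA4c Control libraries lie apart at the lower left (82.5 to 223 CPM for the list), and r over the other 9 libraries is 0.45.

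**Figure D4:**
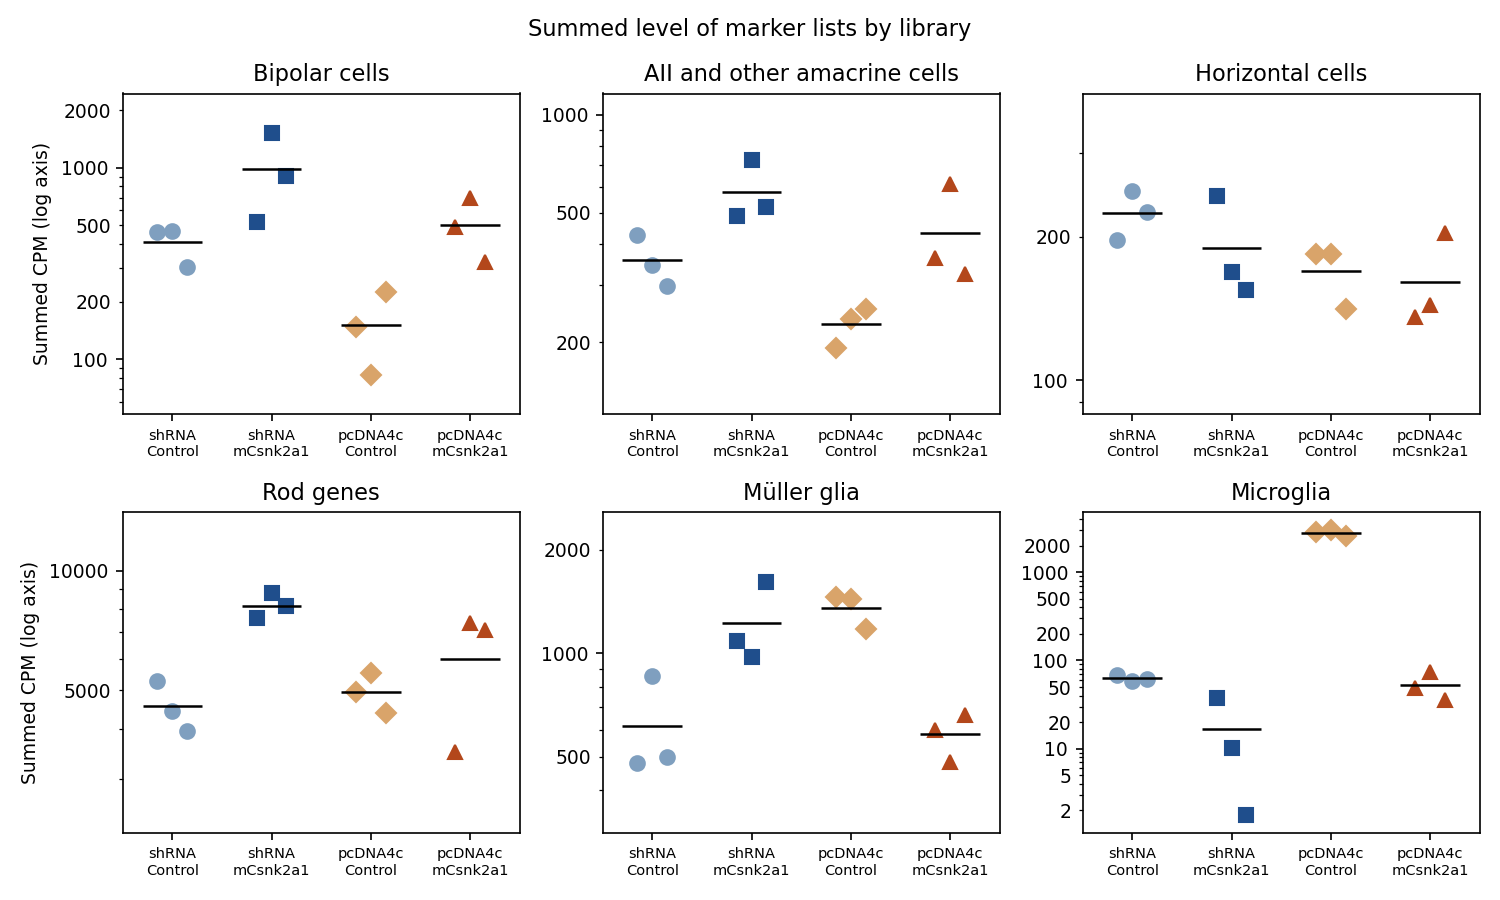
Summed CPM of 6 marker lists on log axes, 1 symbol per library, with a black line at the group mean. The bipolar and amacrine lists are lowest in pcDNA4c Control (82.5 to 223 and 192 to 253 CPM). The horizontal list overlaps between each Csnk2a1 group and its control, and the microglia list is highest in pcDNA4c Control (2551 to 3010 CPM).

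For other retinal cells known to hold PROX1, the amacrine sum came close to the bipolar sum in likeness (r 0.75 against 0.80). The median r of single members was 0.30 against 0.59. The horizontal sum did not come close. The horizontal cell list of 9 genes summed to 141 to 184 CPM in pcDNA4c Control, 136 to 203 in pcDNA4c mCsnk2a1, 155 to 243 in shRNA mCsnk2a1 and 197 to 249 in shRNA Control. Its sum overlapped between the vector group and its control and had an r of 0.06 with Prox1. Of 8 members tested 0 passed in either comparison, beside 0% of all genes with knockdown and 0.0987% with overexpression. Their medians were -0.37 with overexpression and -0.23 with knockdown. Onecut2, a horizontal cell factor also present in progenitors, differed by -0.92 (SE 1.11) with overexpression and by -2.14 (SE 1.15) with knockdown. Tfap2b, shared by horizontal and amacrine cells, differed by 1.62 (SE 1.30) and 1.38 (SE 1.29), and the septin gene Sept4 by -0.36 (SE 0.99) and -0.43 (SE 0.99). Lhx1, which defines horizontal cells, was at 0 in 6 libraries. It reached 72.0 CPM in shRNA mCsnk2a1 3 and 39.8 in pcDNA4c mCsnk2a1 2, and was at or under 4.76 in all others. Lhx1 differed by 2.61 (SE 2.63) with overexpression and by 3.48 (SE 2.72) with knockdown, and had an r of 0.04 with Prox1.

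The list for AII and other amacrine cells, 11 genes with 9 tested, summed to 192 to 253 CPM in pcDNA4c Control and 324 to 612 in pcDNA4c mCsnk2a1. It summed to 490 to 727 CPM in shRNA mCsnk2a1 and 297 to 427 in shRNA Control. As for Prox1 and the bipolar list, the pcDNA4c Control libraries lay below all others. The amacrine sum had an r of 0.75 with Prox1, 0.26 without pcDNA4c Control and -0.13 with group means removed. Of the 9 members tested 6 had an r above 0, with a median of 0.30. It was -0.26 for Slc6a9, -0.26 for Tfap2a and -0.21 for Gad1, so single members did not all follow the sum. Medians were 0.83 with overexpression and 0.68 with knockdown. In either comparison 0 of 9 passed, beside 0% of all genes with knockdown and 0.0987% with overexpression. Pax6, the eye homeobox gene kept in amacrine cells, differed by 0.83 (SE 0.79) with overexpression, Nfia, a factor of AII cells and glia, by 0.82 (SE 0.86), and Dab1, the reelin adaptor found in AII cells, by 1.56 (SE 0.94). Gjd2, the connexin of AII gap junctions, was between 0.519 and 50.8 CPM. The amacrine calcium-binding gene Calb2 and the vesicular transporter gene Slc32a1 were too low to be tested.

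The rod list itself had no member past the threshold, beside 0% of all genes with knockdown and 0.0987% with overexpression. Sag, the rod arrestin gene, differed by 0.32 (SE 0.29) with overexpression and by 1.04 (SE 0.29) with knockdown, Crx by -0.02 (SE 0.30) and 0.76 (SE 0.31), and the phosphodiesterase gene Pde6b by 0.80 (SE 0.39) and 0.76 (SE 0.39). The sum of rod genes had an r of 0.42 with Prox1. Of the 9 members 8 had an r above 0, with a median of 0.39. It was 0.05 for Nrl, the rod leucine zipper factor, and 0.73 for Gnat1, the rod transducin gene, both named here after their values were seen. Sums of rod genes were 4389 to 5535 CPM in pcDNA4c Control and 3506 to 7390 in pcDNA4c mCsnk2a1 and overlapped. Still, 2 of 9 members, Gnat1 and the channel gene Cnga1, were higher in the vector group without overlap, beside 3.73% of all genes. With the hairpins the sums were 7604 to 8794 CPM in shRNA mCsnk2a1 and 3962 to 5285 in shRNA Control, without overlap. With knockdown 9 of 9 members had a difference above 0, beside 48.9% of all genes tested. Prox1 overlapped between the hairpin groups.

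Other cell types were given by the same lists. Of Müller glia genes 1 of 9, Apoe, the lipid carrier also made by macrophages, had a log2 difference of -3.43 with overexpression and passed (SE 0.47, edgeR adjusted p = 0.00250), beside 0.0345% of all genes that passed and were lower. Of the 9 members 7 had a difference above 0, with a median of 0.83 where that over all genes was -0.16. The glutamate transporter gene Slc1a3 differed by 0.25 (SE 0.57) and the chaperone gene Clu by -0.13 (SE 0.64), and the summed Müller level had an r of -0.35 with Prox1. Without pcDNA4c Control this r was 0.54, with group means removed it was 0.59, and 8 of 9 single members had an r above 0, with a median of 0.41. Of 10 microglia genes 3, Spp1, Lyz2 and Mpeg1, passed and were lower in the vector group than in its control (edgeR adjusted p = 0.00198, 0.00437 and 0.00418), beside the same 0.0345% of all genes. Each was listed at 0 in all 3 vector libraries and was at or under 11.9 CPM in both hairpin groups. The microglia sum had an r of -0.91 with Prox1. Without pcDNA4c Control that r was -0.54.

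Among cone genes, Thrb, the thyroid hormone receptor, differed by -0.99 (SE 0.74) with overexpression, the transducin gamma gene Gngt2 by 1.14 (SE 0.66) and the phosphodiesterase gene Pde6h by -2.70 (SE 1.44). Of 7 tested 0 passed in either comparison, beside 0% of all genes with knockdown and 0.0987% with overexpression. Pde6h and Opn1sw, the latter named after its values were seen, were lower in the vector group without overlap. These were 2 of 7, and 0 were higher, beside 11.8% and 3.73% of all genes. Of progenitor and cell cycle genes 0 of 7 passed in either comparison, beside the same 0% and 0.0987%. The proliferation marker Mki67 stood at 707 CPM in pcDNA4c mCsnk2a1 1 and at 0.627 and 0 in the other libraries of that group, where Prox1 was 307, 146 and 420. Top2a, a mitotic topoisomerase, and Cdk1, the mitotic kinase, differed by -2.00 (SE 1.45) and -5.41 (SE 2.01). Cdk1 and Ccnb1, the latter named after its values were seen, were lower in the vector group without overlap. That is 2 of 7, with 0 higher, beside 11.8% and 3.73% of all genes. The summed progenitor level had an r of -0.14 with Prox1.

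Endothelial markers, relevant since lymphatic endothelium makes PROX1, formed a list of 8 genes. It summed to 74.5 to 91.0 CPM in pcDNA4c mCsnk2a1, 86.0 to 115 in pcDNA4c Control, 103 to 281 in shRNA mCsnk2a1 and 48.7 to 178 in shRNA Control, so each Csnk2a1 group overlapped its control. The lymphatic marker Lyve1 was at 0 in all 3 pcDNA4c Control libraries and at 9.19, 0.627 and 0 CPM in the vector group. Cldn5, the endothelial claudin, was at 0 in every library. The receptor gene Kdr reached 213 CPM in shRNA mCsnk2a1 and had an r of 0.64 with Prox1. Of the 5 members tested 2 had an r above 0, with a median of -0.39. It was -0.65 for the adhesion gene Pecam1 and -0.76 for Cdh5, the latter named after its values were seen. With overexpression Kdr differed by 0.96 (SE 0.71), Pecam1 by -2.64 (SE 1.57) and Flt4, the lymphatic receptor, by 0.06 (SE 1.90). Pecam1 and Cdh5, 2 of 5, were lower in the vector group without overlap and 0 were higher, beside 11.8% and 3.73% of all genes. In either comparison 0 of 5 passed, beside 0% of all genes with knockdown and 0.0987% with overexpression.

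Genes that act on or with PROX1 did not pass in either comparison, beside 0% of all genes with knockdown and 0.0987% with overexpression. Of 12 regulators known upstream of Prox1 in retina or endothelium, 8 were tested, 0 passed, and medians were 0.26 with overexpression and 0.28 with knockdown. The receptor gene Notch1 differed by 0.18 (SE 0.80) with overexpression, Pax6 by 0.83 (SE 0.79) and the homeobox gene Meis2 by -1.55 (SE 0.73). Meis2 and Meis1, the latter named after its values were seen, were lower in the vector group without overlap. They are 2 of 8 tested, with 0 higher, beside 11.8% and 3.73% of all genes. Ptf1a and Foxn4, which direct horizontal and amacrine fates upstream of Prox1, were counted in 1 and 2 libraries, all of them shRNA Control, and Sox18, its inducer in lymphatic endothelium, in none.

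All 13 partners and coregulators of PROX1 were tested and 0 passed, with medians of 0.36 and 0.32. The chromatin remodeller gene Chd4 differed by 1.09 (SE 0.52) with overexpression and 0.75 (SE 0.51) with knockdown, the orphan receptor gene Rora by 0.35 (SE 0.67) and 0.29 (SE 0.67), and the deacetylase gene Hdac2 by 0.36 (SE 0.64) and -0.92 (SE 0.64).

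Of 14 genes reported elsewhere as PROX1 targets, 9 were tested and 0 passed, beside 0% of all genes with knockdown and 0.0987% with overexpression. Their medians were 0.06 with overexpression and 0.35 with knockdown. The carnitine transferase gene Cpt1a differed by -1.51 (SE 0.62) with overexpression and the integrin gene Itga9 by -2.65 (SE 1.39). Cpt1a was at 127 to 189 CPM in pcDNA4c Control and 28.4 to 69.5 in pcDNA4c mCsnk2a1, and Itga9 at 43.5 to 94.9 and 1.88 to 24.1. The cyclin E gene Ccne1, named after its values were seen, was at 10.8, 5.00 and 1.66 CPM in pcDNA4c Control and at 0, 0 and 1.34 with the vector. These 3 of 9 were lower without overlap, beside 11.8% of all genes. Cdkn1b, the cell cycle inhibitor p27, was at 16.2, 28.5 and 23.3 CPM in pcDNA4c Control and at 38.1, 78.3 and 44.3 in pcDNA4c mCsnk2a1, without overlap, a log2 difference of 1.24 (SE 0.83) that did not pass (edgeR adjusted p = 0.732). It was the only target of the 9 without overlap and higher, beside 3.73% of all genes. The lens crystallin genes Cryaa, Cryba1, Crygb and Crygd were too low to be tested. The summed target level was 246 to 339 CPM in pcDNA4c Control and 143 to 186 in pcDNA4c mCsnk2a1, without overlap, and had an r of -0.28 with Prox1.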

How the data were processed

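Total RNA of hand-picked rods was sequenced from paired ends in 12 libraries, 3 in each of 4 groups taken from the treatment labels. Per the submitters' processing notes the authors used mm10, kallisto 0.45.0 and edgeR 3.28, in no stated order. Neither strand setting nor annotation release is named. The authors' gene table holds estimated counts as deposited, with no scaling between libraries, and 99.42% of its values above 0 lay more than 0.001 from a whole number. The transcript table deposited beside it, though named for counts, holds TPM values, since its columns all sum to the fixed total of that unit. A further table deposited by the authors holds a scaled signal, equal to the gene table times 1 constant per library (largest relative departure 6.99e-15). It covers 11 of the 12 libraries, without pcDNA4c mCsnk2a1 1, and was used for those.

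Estimated counts were rounded and fitted with edgeR 4.0.16 in R 4.3.3 by the quasi-likelihood test, with filterByExpr (minimum count 10, 20267 genes left), TMM scaling, all 12 libraries in 4 groups and no covariate. P-values were adjusted by Benjamini-Hochberg over all genes tested, with a threshold of 0.05. The script was tested on simulated data. Correlations used log2 CPM with a prior count of 2 over 12 libraries and carry no p. Alternatives used limma 3.58.1, DESeq2 1.42.0, other scalings and filters, and left out libraries. Transcript positions came from GENCODE M21, where 97.85% of the deposited transcripts were found, and promoter windows from RefSeq.

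The members, the 13 gene lists and the tests were chosen with earlier results of these data known, so no list's direction is independent evidence. Some genes are not reported here and were left out of the lists and their sums. The text names Prox1, all genes of its family and locus list, and from every other list the genes that passed and the 3 with the highest mean CPM. Of the 10 genes most like Prox1, without predicted-gene and pseudogene symbols, it names those described above. Other list members are named for their known role in the cell type, after their values were seen. Each library held 1608926 to 3567121 counts from 50 to 100 cells. PCR copies were not marked by molecular identifiers, so counts are not independent molecules.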

Additional observations from a re-analysis of the deposited data

How the results depend on the processing

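The Prox1 difference with knockdown was 0.84 to 1.74 on the log2 scale over 22 alternatives, was above 0 in each and passed in none (adjusted or exact permutation p 0.2 to 0.972). The exact permutation test, with p = 0.2, could not have passed, since its smallest possible p is 0.1. The lowest and highest differences both came from leaving out 1 library (0.84 to 1.74). With overexpression it was 3.60 to 4.30 over 21 alternatives, and 3.60 to 4.29 with 1 library left out. Counts of genes that passed depended on the tool and the filter. With knockdown, where edgeR gave 0, DESeq2 gave 183, limma voom 2 and edgeR without the filter on low counts 93, and leaving out 1 library gave 0 to 4. With overexpression, where edgeR gave 20, DESeq2 gave 253, limma voom 37, no filter 111 and only the 6 libraries of the comparison 6. Leaving out 1 library gave 14 to 35, the highest without pcDNA4c mCsnk2a1 1. The causes were not tested.

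Replicate numbers recur across groups. The deviations of same-numbered libraries from their group means correlated at -0.04 to 0.01 over 6 pairs, and 0 of the pairs were best with their own number, so the numbers were not taken as a pairing. With the replicate number as a block, Prox1 differed by 1.16 with knockdown (edgeR adjusted p = 0.874) and by 4.04 with overexpression, and 1 gene passed with knockdown and 26 with overexpression. No bipolar gene of the 8 passed with overexpression in 19 of 20 alternatives, which were added after the data were seen, and 1 passed with DESeq2. Depth limits the transcript values most where the whole gene had 28.7 to 47.4 counts.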
